A study of Mus musculus with 4 samples.

Results

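The mitochondrial respiratory chain passes electrons from NADH (complex I) and succinate (complex II) through complex III to oxygen at complex IV, and the proton gradient that this builds drives ATP synthase, complex V. Apart from a small set of subunits encoded in mitochondrial DNA, its proteins come from nuclear genes, which must be expressed in step with each other and with the mitochondrial genome. Quiescent hair follicle stem cells are known for a strong reliance on glycolysis, so the chain's transcripts are of interest beside those of the whole epidermis. The genes described here were all those measured by a probe set with a single gene symbol starting with Nduf, Sdha to Sdhd, Uqcr, Cox4 to Cox8 or Atp5, with the probe set of the highest mean log2 signal taken for each gene. They numbered 87 of the 12393 genes tested: 33 of complex I, 4 of complex II, 8 of complex III, 17 of complex IV, 17 of complex V and 8 assembly factors of complexes I and II.

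Expression was measured on 4 Affymetrix mouse arrays with RNA from sorted living cells of back skin of mice at postnatal day 49. All mice carried K14-GFP-actin, a fluorescent actin under the control of the keratin 14 promoter, whose activity marks basal keratinocytes, and all cells were GFP-positive. The bulge basal group (2 arrays) held cells high for α6 integrin and CD34, the surface markers of the basal layer of the hair follicle bulge. The total epidermis group (2 arrays) held all living GFP-positive cells, a gate that does not exclude bulge cells, and the cell type label of the 4 samples is the same, so the groups were taken from the titles. The labels name no animals, cultures or sorting days behind the replicates, so every p-value here is set against a spread between samples that could be technical.

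The signal of an array probe is the brightness of the labelled RNA bound to it, and the deposited values had the same trimmed mean, 500, on every array. A background level was set at a signal of 141.6 (log2 7.15), the 95th percentile of the signals of 67 olfactory, vomeronasal and taste receptor genes. All 6 keratinocyte markers were above it on all 4 arrays. Cd34 had signals of 15700 and 14030 on the bulge arrays, against 844 and 1144 on the total arrays (limma adjusted p = 0.0729), whereas Itga6, which encodes α6 integrin, had 3312 and 1693 in bulge against 5642 and 3491 in total, opposite in direction to the gate. The summed signal of 8 myeloid and Langerhans markers, 6 of them above background on at least 1 array, was 1105 and 1550 on the bulge arrays and 9976 and 11650 on the total arrays, and that of the 6 measured T cell and leukocyte markers (5 above background on at least 1 array) was 232 and 412 against 1767 and 3042. The 6 fibroblast markers, 2 of them above background on at least 1 array, summed to 4335 and 1764 on the bulge arrays, against 701 and 557 on the total arrays. This sum was carried by Col1a2 (3852 and 1541 in bulge, 343 and 286 in total), while Col3a1, Pdgfra and Dcn, all below background, were lower in bulge without overlap. The arrays of total epidermis resembled each other more (r = 0.950 over 5914 genes above background on all 4 arrays) than the bulge arrays did (r = 0.848), and each bulge array correlated more with the total array of its own number (0.880 for replicate 1, 0.876 for replicate 2) than with the other bulge array.

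Of the 87 genes, 78 were above background on all 4 arrays and 4 (Cox6a2, Cox6b2, Cox7a1 and Cox8b) were below it on all 4. The other five (Cox4i2, Cox7c, Ndufaf7, Ndufb1 and Ndufs5) crossed it on some arrays. Counts over the 78 describe genes with a measured level throughout, not the whole family. In bulk RNA a change in the share of cells that express a gene and a change in RNA per cell cannot be told apart.

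Between bulge basal cells and total epidermis, the respiratory chain genes showed no common shift. The median difference, bulge minus total, was 0.01 on the log2 scale (quartiles -0.18 and 0.19), beside -0.02 over all genes tested (quartiles -0.41 and 0.38). The difference was above 0 for 45 of the 87 genes and below it for 42, and 48.3% of all genes were above 0. None of the 87 passed limma's moderated test at an adjusted p of 0.05 (0 of 12393 genes, 0%), and 1 had an unadjusted p under 0.05, against 10.5% of all genes. That gene was Cox7a1, which lay below background on every array. With a variance trend on signal, limma again called none of the 87, where it called 1.08% of all genes, and with dim genes left out none of 82, where it called 2.66%.

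On the chosen probe sets, few of the genes separated the bulge arrays from the total arrays. Bulge signals were higher on both arrays for Cox7a1, Ndufv1 and Sdhaf2, which is 3 of 87 where 18% of all genes separated in this direction. They were lower on both arrays for Atp5b, Atp5g3, Cox5a, Ndufa12, Ndufa9, Ndufaf4, Ndufaf5, Sdhaf1, Uqcrfs1 and Uqcrh, 10 of 87 against 20.5% of all genes. Both shares were under the background of all genes. Overlap depends on the spread within each population as well as on the difference between them. The median replicate 2 minus 1 difference of the 87 genes was 1.01 in bulge and 0.49 in total, and its part in these shares was not tested. The immune markers above and Col1a2 differed between the same groups, and their part in these values was not tested.

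**Figure D1:**
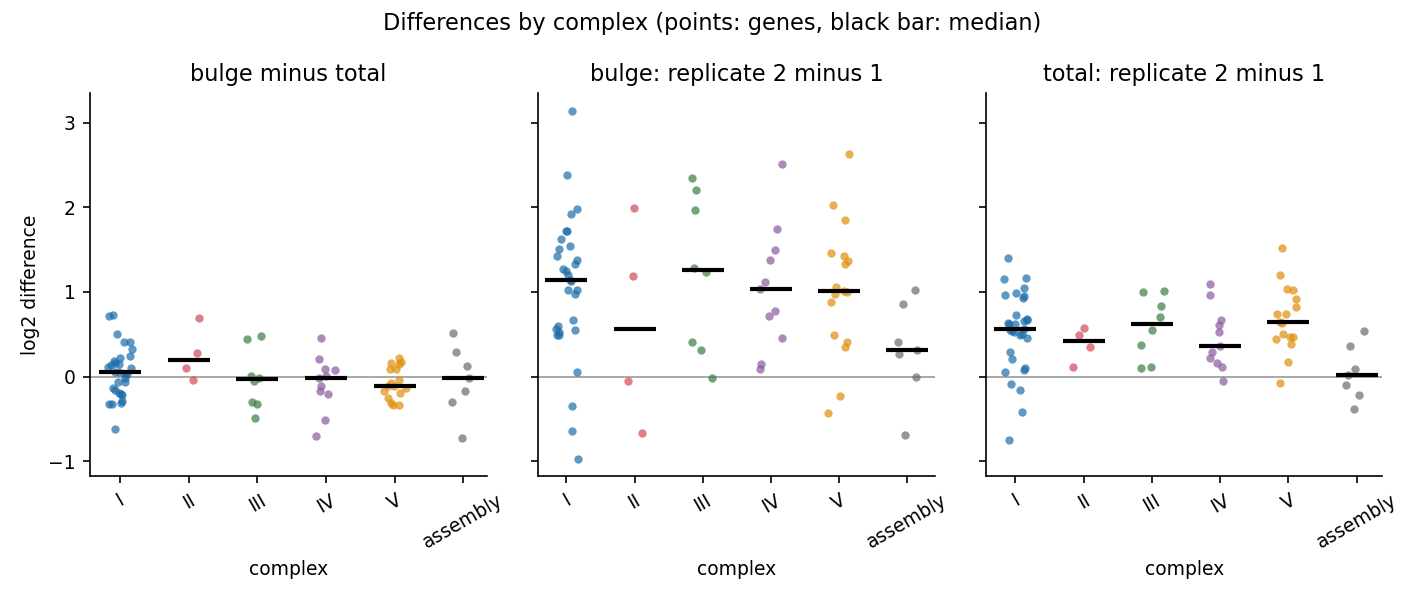
Log2 differences of the 78 respiratory chain genes above background on all 4 arrays, by complex: bulge minus total (left), replicate 2 minus 1 in bulge (middle) and replicate 2 minus 1 in total (right). Each point is a gene and each black bar a median. The points of the left panel lie on either side of 0, from -0.72 to 0.72, while most points of the other panels lie above 0.

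Complex I takes electrons from NADH. Its 33 measured genes comprised 6 core subunits, some of which hold the flavin and iron-sulfur centres, and 27 supernumerary subunits. The bulge minus total difference was above 0 for 20 and below it for 13, with a median of 0.06. Ndufv1, which binds NADH and the flavin, had 2291 and 3380 on the bulge arrays, against 2082 and 1860 on the total arrays. It stood out by the absence of overlap, and its difference of 0.50 had a 95% interval of -0.53 to 1.53. Ndufs1, the largest iron-sulfur subunit, had 1545 and 990 in bulge against 2012 and 1192 in total, and its ranges overlapped. The core subunit Ndufs3 had 1458 and 2314 in bulge against 1800 and 2893 in total.

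The largest positive differences among complex I genes above background belonged to the supernumerary subunits Ndufa6 and Ndufa7. Ndufa6 had 767 and 2519 on the bulge arrays, against 677 and 1046 on the total arrays. Ndufa7 had 400 and 1510 in bulge against 392 and 574 in total. For each of these the first bulge array lay within the range of the total arrays and the second above it, and the intervals of the differences, -0.98 to 2.43 and -1.11 to 2.53, held 0. At the other end, Ndufa12 had 3980 and 5598 in bulge against 5837 and 9070 in total, a difference of -0.62 (interval -1.74 to 0.50, adjusted p = 0.772 by limma). Of its 4 probe sets, the 3 with a measured level gave negative differences, between -0.62 and -0.43. The remaining one gave 0.95, but its signals never reached the background level. Ndufa9, which lies near the quinone site, had 2681 and 2777 in bulge against 3305 and 3551 in total, a small difference (-0.33) without overlap. On the chosen probe sets, the remaining complex I genes had bulge minus total differences between -0.29 (Ndufb6) and 0.41 (Ndufa2 and Ndufb10). All of these overlapped between the groups on those probe sets. Among these genes, Ndufab1, the mitochondrial acyl carrier protein, had 540 and 791 in bulge against 736 and 763 in total. A second Ndufab1 probe set above background had 288 and 484 in bulge against 513 and 703 in total, or -0.68 without overlap. Ndufs5 (133 and 387 in bulge, 150.5 and 205 in total) and Ndufb1 (134 and 195 in bulge, 166 and 126 in total) crossed the background level, so their differences are poorly measured.

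Complex II, succinate dehydrogenase, belongs to the citric acid cycle as well as to the chain and has no subunit encoded in mitochondrial DNA. Its 4 subunits did not move as one. Sdha, the flavoprotein that oxidises succinate, had 3024 and 1900 on the bulge arrays, against 2374 and 2560 on the total arrays. Sdhb, the iron-sulfur subunit, had 939 and 3720 in bulge against 1027 and 1312 in total. Thus Sdha was highest on the first bulge array and lowest on the second, and its difference was -0.04. Sdhb was highest on the second bulge array, and its difference of 0.69 rests on that array. The membrane anchors Sdhc (617 and 1406 in bulge, 648 and 910 in total) and Sdhd (442 and 425 in bulge, 330 and 491 in total) overlapped between the groups.

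Complex III hands electrons from ubiquinol to cytochrome c. Its Rieske iron-sulfur protein, Uqcrfs1, had 1546 and 1922 on the bulge arrays, against 2331 and 2519 on the total arrays, a difference of -0.49 (interval -1.45 to 0.47) without overlap. Uqcrh, the hinge protein that assists the passage to cytochrome c, had 1656 and 2201 in bulge against 2314 and 2475 in total, also without overlap. The core proteins Uqcrc1 and Uqcrc2, by contrast, had differences of -0.05 and 0.01. The small subunits Uqcr10 (0.44) and Uqcr11 (0.48) had the highest bulge minus total differences of this complex, and the supernumerary subunit Uqcrb had -0.01. A second Uqcrb probe set above background had 1814 and 2331 in bulge against 2413 and 2608 in total, or -0.29 without overlap. The soluble carrier that complex III reduces, Cycs, was not among the 87 and had 2358 and 5616 in bulge against 4984 and 6897 in total (-0.69, limma adjusted p = 0.819).

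Complex IV, cytochrome c oxidase, has nuclear subunits that exist as tissue forms. The forms known from most tissues, Cox4i1, Cox6a1, Cox6b1, Cox7a2, Cox7a2l (a factor of supercomplex assembly) and Cox8a, were above background on all 4 arrays. The forms known from heart and skeletal muscle, Cox6a2, Cox7a1 and Cox8b, were not above it on any array, and none of the 6 striated muscle markers was. Cox6b2, known from testis, was below it on all arrays too. Cox4i2, known from lung, had 187 and 173 on the bulge arrays, against 266 and 112 on the total arrays, crossing the background level within the total group. Cox8c, also known from testis, did have a measured level, 480 and 534 in bulge against 512 and 496 in total, a difference of 0.01 (interval -0.93 to 0.94).

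**Figure D2:**
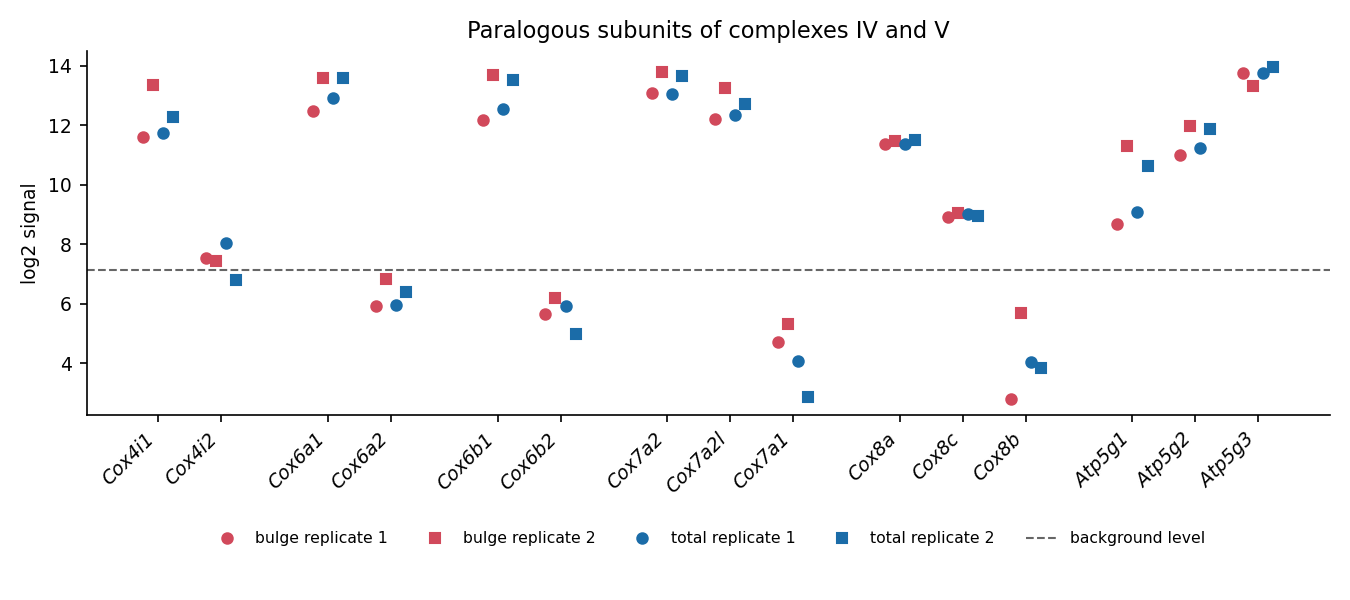
Log2 signal of paralogous subunits of complexes IV and V on each array: bulge replicates in red, total replicates in blue, replicate 1 as circles and replicate 2 as squares. The dashed line is the background level, 7.15. Cox6a2, Cox6b2, Cox7a1 and Cox8b lie below it on all 4 arrays. Signals of different probe sets are not comparable as amounts of RNA.

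Among the complex IV genes above background, Ndufa4 had the lowest bulge minus total difference. This protein was first assigned to complex I and is now counted in complex IV. It had 194 and 1102 on the bulge arrays, against 710 and 791 on the total arrays, so that its difference of -0.70 (interval -2.87 to 1.48) came from the first bulge array and the second lay above both total arrays. Cox5a, a matrix-side subunit, had 1842 and 3140 in bulge against 3179 and 3688 in total. Its groups did not overlap and all 3 of its probe sets gave a negative difference, from -1.03 to -0.51. Cox5b (0.08), Cox6a1 (-0.21), Cox6b1 (-0.11), Cox6c (-0.17), Cox7a2 (0.09) and Cox8a (-0.01) lay near 0, and Cox4i1 had 0.46. Cox7c had 177 and 74.2 in bulge against 124 and 122 in total, with only the first bulge array above background.

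Complex V makes ATP in its F1 head, which is turned by a membrane ring of c subunits. All 17 of its genes were above background. On the chosen probe sets their bulge minus total differences had the narrowest range of any complex, -0.33 to 0.21. Of the 17, 11 were below 0. Atp5b, the catalytic β subunit, had 2857 and 3799 on the bulge arrays, against 4208 and 3997 on the total arrays. Its difference was -0.32 (interval -1.30 to 0.67), and the groups did not overlap. Atp5a1, the α subunit, had 15769 and 13483 in bulge against 13754 and 17927 in total. The c subunit is encoded by 3 genes, Atp5g1, Atp5g2 and Atp5g3, whose products differ in the import sequence and give the same mature protein. Their differences were 0.15, -0.08 and -0.33, and only Atp5g3 (13643 and 10116 in bulge, 13929 and 15740 in total) separated the groups. The other complex V genes lay between -0.33 (Atp5k, of the membrane domain) and 0.21 (Atp5e, the ε subunit of the head), all with overlapping groups. Atp5o, which joins the head to the stalk, had 1698 and 3541 in bulge against 2489 and 3445 in total.

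The assembly factors insert cofactors and join modules without staying in the finished complexes. Ndufaf4, a complex I factor, had 611 and 378 on the bulge arrays, against 903 and 695 on the total arrays. Its difference of -0.72 (interval -1.83 to 0.39, adjusted p = 0.721 by limma) was the most negative of the 78. Sdhaf2, needed to attach the flavin to Sdha, had 519 and 644 in bulge against 357 and 459 in total, a difference of 0.51 (interval -0.48 to 1.51). Its other probe set, also above background on all 4 arrays, had 166 and 288 in bulge against 192 and 243 in total. That difference was 0.02 and the groups overlapped, so the separation of Sdhaf2 rests on 1 probe set. Sdhaf1, which serves Sdhb, had 222 and 267 in bulge against 298 and 303 in total. Ndufaf1, Ndufaf3, Ndufaf5 and Ndufaf7 had differences of 0.12, -0.02, -0.17 and -0.36, and Sdhaf4 had 0.29.

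The sign of the bulge minus total median depended on which arrays were compared. Without the first bulge array it was 0.56, and without the second it was -0.45. Without the first total array it was -0.22, and without the second 0.27. Compared by replicate number, the median was -0.25 between the arrays of replicate 1 (all genes -0.08) and 0.22 between those of replicate 2 (all genes 0.06). Of the 78 genes above background, 62 were lower in bulge within replicate 1 (51.8% of all genes above background) and 49 were higher in bulge within replicate 2 (51.5%).

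The respiratory chain genes differed between the arrays of each population. The median of replicate 2 minus replicate 1 was 1.01 on the log2 scale in bulge and 0.49 in total, beside -0.05 and -0.14 over all genes, and -0.03 in each population over all genes above background. Signals were higher on the second array in both populations for 66 of the 87 genes, where 26.5% of all genes were, and lower in both for 8, where 38.6% of all genes were. Among the 78 above background the counts were 64 (33.6% of the genes above background) and 5 (37.8%), and for 61 of the 78 the difference was larger in bulge than in total (50.4%). The second bulge array was the highest of the 4 for 49 of the 78 (31.9% of the genes above background), the second total array for 22 (17%), the first total array for 5 (23.7%) and the first bulge array for 2 (27.5%). The first bulge array was the lowest for 57 (27.3%).

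**Figure D3:**
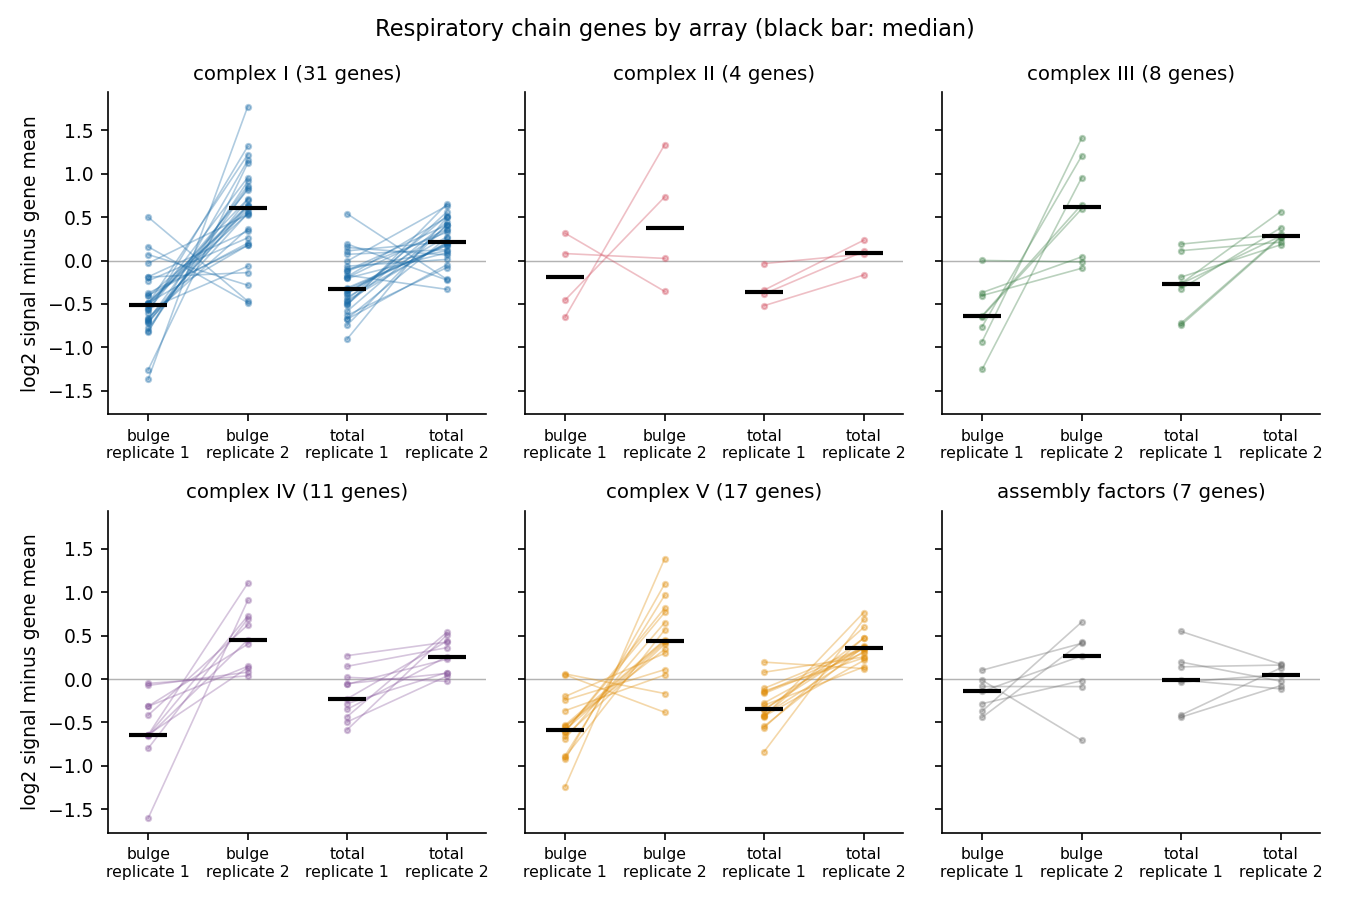
Log2 signal of each respiratory chain gene on each array minus the gene's mean over the 4 arrays, for the 78 genes above background, by complex. Lines join the replicates of 1 gene within bulge and within total, and black bars are medians. In complexes I, III, IV and V most lines climb in both populations, more steeply in bulge, while the lines of complex II and of the assembly factors cross.

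With the populations taken as repeats, limma called none of the 87 for replicate 2 against replicate 1 (0% of all genes), and 25 had an unadjusted p under 0.05, all of them higher on the second arrays (4.83% of all genes were higher at this p and 7.67% lower). With a variance trend on signal it called 5 higher and none lower: Ndufb10, Atp5g1, Ndufs8, Uqcr11 and Ndufv3 (0.516% of all genes were called higher and 0.46% lower). With dim genes left out it called 27 of 82 higher and none lower (6.17% of the genes fitted were called higher and 6.27% lower), and those 27 held 12 of complex I, 1 of complex II, 3 of complex III, 4 of complex IV, 7 of complex V and no assembly factor. Each of the 27 was above background on all 4 arrays. These calls rest on 1 residual degree of freedom besides the variance shared across genes, and no label says what arrays of one replicate number have in common.

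Ndufb10, a supernumerary subunit of the membrane arm, had the largest replicate difference in bulge and on the mean of both populations, while Atp5g1 had the largest in total. Ndufb10 had 293 and 2580 on bulge arrays 1 and 2, against 403 and 1064 on total arrays 1 and 2. This was a log2 difference of 3.14 in bulge and 1.40 in total (adjusted p = 0.0271 with the variance trend in limma, 0.365 without). Atp5g1 had 412 and 2544 in bulge against 544 and 1564 in total, or 2.63 and 1.52. Ndufs8, a core iron-sulfur subunit, had 582 and 3031 in bulge against 975 and 2186 in total, or 2.38 and 1.16. Each of these genes was lowest on the first bulge array and highest on the second. Uqcr11 had 745 and 3781 in bulge against 849 and 1709 in total, and Ndufv3 had 757 and 2984 in bulge against 801 and 1786 in total.

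The size of the replicate difference varied by complex. Its medians in bulge and total were 1.14 and 0.55 for complex I, 0.57 and 0.42 for complex II, and 1.26 and 0.62 for complex III. They were 0.77 and 0.21 for complex IV with all 17 genes, 1.04 and 0.36 for its 11 genes above background, and 1.01 and 0.64 for complex V. The assembly factors had 0.29 and -0.04, the smallest of these medians, and their differences among themselves reached both signs. No difference between the complexes was tested.

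Some subunits went the other way or did not move. Ndufs1 had replicate 2 minus 1 differences of -0.64 in bulge and -0.75 in total (adjusted p = 0.454 by limma). Ndufs4, a supernumerary subunit beside the iron-sulfur centres, had 1271 and 650 on bulge arrays 1 and 2, against 1025 and 769.6 on total arrays 1 and 2. Its other 2 probe sets, also above background, gave -0.08 and 0.19 in bulge and -0.16 and -0.20 in total, so the bulge difference rests on 1 probe set of 3. Among the chosen probe sets, Ndufs1 and Ndufs8, both iron-sulfur subunits of the same complex, ran in opposite directions between the same arrays. Ndufb3 and Ndufaf4 were also lower on the second array in both populations, as was Ndufaf5, by very little in bulge. Sdha was lower on the second array in bulge but not in total by value (-0.67 in bulge, 0.11 in total), as were Atp5a1 (-0.23 and 0.38) and Atp5g3 (-0.43 and 0.18), and this contrast was not tested. For Atp5a1 the probe sets disagreed, from -0.41 to 1.23 in bulge. Cox8a and Cox8c had small differences, 0.09 and 0.15 in bulge and 0.12 and -0.05 in total, but a second Cox8a probe set above background on all 4 arrays gave 0.88 in bulge and -0.58 in total.

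Several members of complex IV and complex V showed a larger replicate difference in bulge than in total by value, which was not tested. Ndufa4 had 2.51 in bulge and 0.16 in total. Cox4i1, with 3100 and 10390 on bulge arrays 1 and 2 and 3437 and 4953 on total arrays 1 and 2, had 1.75 and 0.53. Atp5d, the δ subunit of the F1 head, had 2.02 and 0.92, and Sdhb of complex II had 1.99 and 0.35. The 5 membrane domain subunits of complex V had medians of 1.01 in bulge and 1.03 in total. Of these, Atp5j2 had 1.85 and 1.03, Atp5k 1.46 and 1.20, Atp5md 0.99 and 0.83, Atp5l 1.01 and 1.03, and Atp5mpl 0.35 and 0.47, so that 3 of the 5 were larger in bulge.

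**Figure D4:**
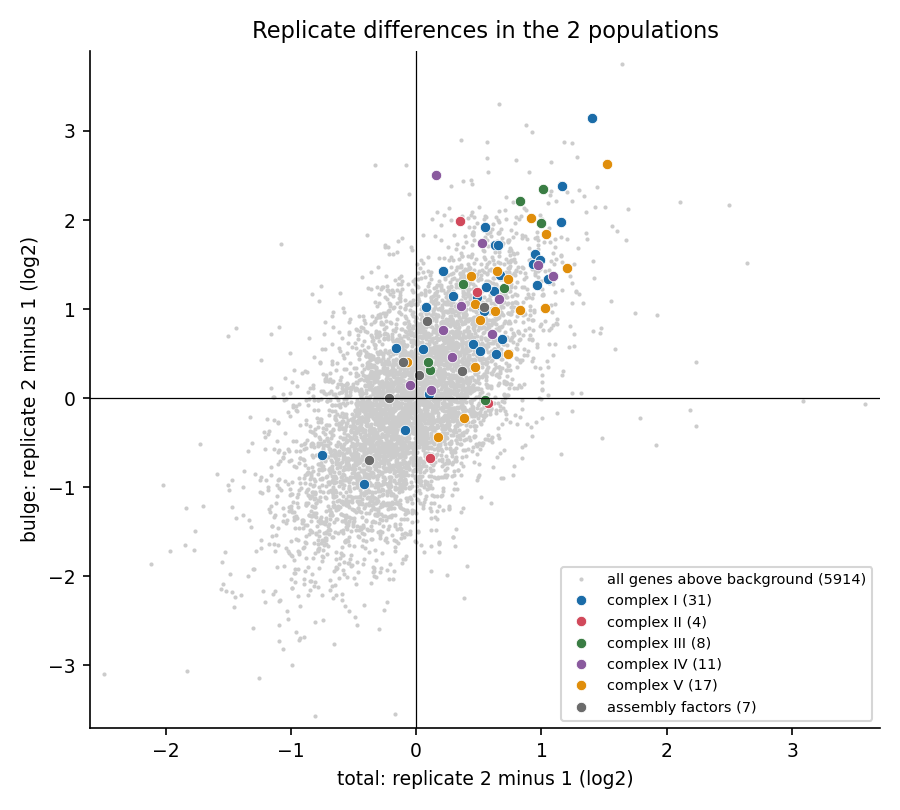
Replicate 2 minus replicate 1 in bulge (vertical axis) against the same in total (horizontal axis), both as log2 differences, for 5914 genes above background on all 4 arrays (grey) and the 78 respiratory chain genes among them (coloured by complex). The respiratory chain genes gather in the upper right, where both differences are above 0: 64 of 78 lie there, against 33.6% of all genes above background.

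The array controls for RNA quality differed between replicates as well. The ratio of 3′ to 5′ probe set signal for Actb was 5.65 and 10.9 on bulge arrays 1 and 2, against 5.14 and 7.96 on total arrays 1 and 2, so that it was higher on the second array of each population. For Gapdh it was 15.8 and 10.3 in bulge against 12.2 and 17.1 in total, and thus changed in opposite directions. The 5′ probe set for 18S ribosomal RNA had a signal of 1330 on the second bulge array, against 159 on the first and 153 and 199 on the total arrays. Markers of other cell types differed between replicates too. Of the 6 measured T cell and leukocyte markers, 5 were higher on the second array in both populations (26.5% of all genes), with the sums given above. In bulge only Thy1 was above background, on the second array (294), and Cd2 was below it on all 4 arrays. Of 5 endothelial markers, 4 were lower in both populations (38.6% of all genes), and only Kdr was above background on any array. The part of these measures in the replicate difference of the chain was not tested.

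Other genes of the same cellular systems were set beside the chain, and none of the 238 measured was called between bulge and total by limma, with a variance trend or with dim genes left out. Over all genes tested, 26.5% were higher on the second array in both populations and 38.6% were lower in both. Of 74 mitochondrial ribosomal protein genes, 58 were higher on the second array in both populations, with medians of 0.99 in bulge and 0.31 in total. Of 48 cytosolic ribosomal protein genes 44 were, with 1.001 and 0.61 (4 S6 kinase genes and 1 pseudogene that share the name prefix were left out of these values), and of 22 protein import genes (Timm and Tomm) 14 were, with 0.96 and 0.28. Positive medians were thus found in these sets outside the chain too, and no difference between the sets was tested. The 43 assembly factors and carriers outside the name prefixes had medians of 0.80 and 0.28, and 26 were higher in both populations.

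The citric acid cycle and glycolysis feed the chain or bypass it. The 16 measured genes of the citric acid cycle had replicate medians of 0.28 in bulge and 0.13 in total. Of these, 9 were higher in both (26.5% of all genes). Their bulge minus total median was -0.28, with citrate synthase (Cs) at 3846 and 6032 in bulge against 6375 and 8702 in total. The 18 glycolysis genes had replicate medians of 0.12 and 0.04 and a bulge minus total median of -0.03, and Ldha, which makes lactate, had 7522 and 7921 in bulge against 8395 and 9128 in total. None of these differences passed the test.

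The 13 measured regulators of mitochondrial biogenesis had replicate medians of -0.35 in bulge and -0.13 in total. Of the 13, 4 were higher on the second array in both populations (26.5% of all genes) and 8 were lower in both (38.6%). Ppargc1a, the coactivator that raises mitochondrial gene expression in many tissues, had 430 and 163 on bulge arrays 1 and 2, against 291 and 142 on total arrays 1 and 2. Nrf1, the factor that binds promoters of respiratory genes, had 285 and 224 in bulge against 486 and 360 in total. Gabpa, the DNA-binding subunit of another such factor (also called NRF-2), had 892 and 641 in bulge against 936 and 474 in total. Yy1 had 4319 and 2635 in bulge against 4084 and 2624 in total. These 4 genes, chosen for their role after their values were seen, were lower on the second arrays, on which most chain genes were higher. Esrra, Pprc1, Sirt3 and Tfb1m were the regulators higher on the second array in both populations.

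The promoters of the chain genes were searched for letters of these factors' sites, as a description. Any link of these letters to the replicate differences was not tested. RefSeq promoters (GRCm38.p6, 250 bases before to 50 after the start) were matched for 73 of the 87 genes, with 78 promoters in all. The NRF-1 letters, GCGCA joined directly to TGCGC, were in 6 of the 78 (7.69%), against 0.971% of 32851 promoters and 1.60% of the promoters of the genes measured. The ETS letters CCGGAAG, the core bound by GABPA, were in 20 (25.6%, against 8.86% and 14.0%), and the YY1 letters AAGATGGCG in 6 (7.69%, against 1.40% and 2.31%). The TATA letters TATAAA were in 8 (10.3%, against 13.6% and 9.80%). Both strands were searched and no motif holds another. The member promoters were richer in G and C, with a median of 58.8% against 52.7% in all promoters, and the part of base composition in these shares was not tested. The windows below show a match in capitals with up to 30 bases on either side, as examples of each factor's letters. Windows with the NRF-1 and YY1 letters were taken by position alone. ETS windows were taken only for genes called for replicate 2 against 1 with a variance trend.
Atp5g2: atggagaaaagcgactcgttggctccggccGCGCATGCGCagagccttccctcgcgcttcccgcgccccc
Atp5k: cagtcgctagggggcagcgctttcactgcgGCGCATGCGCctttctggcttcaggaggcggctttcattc
Cox6a1: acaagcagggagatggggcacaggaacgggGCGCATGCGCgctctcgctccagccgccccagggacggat
Ndufaf4: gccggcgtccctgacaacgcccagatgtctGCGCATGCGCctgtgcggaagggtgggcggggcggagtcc
Atp5j: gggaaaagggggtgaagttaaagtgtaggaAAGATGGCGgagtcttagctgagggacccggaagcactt
Uqcr11: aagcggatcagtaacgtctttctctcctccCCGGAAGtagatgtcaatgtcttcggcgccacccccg

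The first 4 windows hold the NRF-1 letters, at chr15:102671050-102671119 (minus strand) for Atp5g2, chr5:108434410-108434479 (minus) for Atp5k, chr5:115349081-115349150 (minus) for Cox6a1 and chr4:24897940-24898009 (plus) for Ndufaf4. Their matches start 42, 50, 162 and 113 bases upstream of the gene's start. The Atp5j window (chr16:84835026-84835094, minus) holds the YY1 letters 88 bases upstream, and the ETS letters in lower case 61 bases upstream. The Uqcr11 window (chr10:80406851-80406917, minus) holds the ETS letters 66 bases upstream. All windows are written 5′ to 3′ on the strand of the gene. Genes with the same letters could differ in value. Atp5k and Ndufaf4 both hold the NRF-1 letters, and their replicate differences were 1.46 and -0.69 in bulge and 1.20 and -0.38 in total. Of the 6 genes with the NRF-1 letters 4 were higher on the second array in both populations. Of the 20 with the ETS letters 18 were, and of the 6 with the YY1 letters 5 were. Among all 87 genes 66 were, and 26.5% of all genes tested were. No difference between these shares was tested. A match is a description of these letters and does not show that a factor binds there.

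For 46 of the 87 genes several probe sets were measured, 160 in all, and 39 had several above background. For 12 of the genes the probe sets above background gave bulge minus total differences of both signs: Ndufa5, Ndufb2, Ndufb7, Ndufc1, Ndufs8, Ndufv2, Sdhc, Cox5b, Cox6b1, Cox7a2, Cox7a2l and Cox8a. Atp5c1, the γ subunit, had 2 probe sets with replicate differences of opposite sign, -1.01 and 0.88 in bulge and -0.91 and 0.51 in total. The 6 probe sets of Ndufs8 ranged from 0.28 to 2.48 in bulge. The chosen probe set of 20 genes, Ndufs8, Ndufv1, Ndufa12, Sdha, Atp5a1 and Atp5d among them, is of a design that can also bind related transcripts, so pseudogene or paralogue signal in it cannot be told apart.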

How the data were processed

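RNA of 4 sorted samples was measured on Affymetrix arrays after oligo-dT amplification of 200 ng, per the labels' protocols. The authors deposited 1 linear intensity per probe set and array, with a mean of 500 on every array after trimming 2% at each end. Per the submitters' processing notes the tools included RMA, GCOS, affy 1.36 and R 2.15.1, and which of them made these values is not given in the sources used here. The design provided for linear values, and log2 was taken. Gene symbols came from the platform annotation: of 22690, 64 were controls, 20380 had 1 symbol, 691 several and 1555 none, and only those with 1 symbol were used. All 87 genes were matched to RefSeq by Entrez ID.

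Groups were compared in R 4.3.3 with limma 3.58.1 (lmFit, then eBayes, two-sided), with Benjamini-Hochberg adjustment over 12393 genes and a threshold of 0.05. Replicate 2 was set against 1 with group as a covariate. The genes, lists, tests and alternatives were chosen with earlier results of these data known. The use of probe sets without an x or s suffix, and the removal of S6 kinase genes and a pseudogene from the ribosomal list, were chosen after seeing the data. Genes were named by rule: core subunits, paralogue sets, the extremes of each difference per complex, the highest signal per complex and genes with disagreeing probe sets, 54 in all. Other genes in the text were named after their values were seen. The fits of bulge against total, with and without a variance trend, were tested on simulated data without a replicate effect. The fits of replicate 2 against 1 were not tested in this way. The number of arrays limits the precision.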

Additional observations from a re-analysis of the deposited data

Results flagged for a closer look

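Probe sets that carry several gene symbols were left out of all comparisons, and 8 of them name respiratory chain genes. Of these, 6 were above background on all 4 arrays, and their lowest signals over the arrays were 274.6 for the probe set of Ndufs5 and its pseudogene, 1780 and 600.1 for those of the Ndufb4 copies, 651.5 for that of Ndufa11 and Ndufa11b, 2903 for that of Ndufs6 and Ndufs6b and 1983 for that of Ndufab1 and its pseudogene. The Ndufa11 probe set had 1204 and 3734 on the bulge arrays, against 652 and 1128 on the total arrays, a difference that was not tested. ND5, the platform's symbol for a complex I subunit encoded in mitochondrial DNA, lies outside the name prefixes and had a lowest signal of 5919. It had 11840 and 5919 on bulge arrays 1 and 2, against 12940 and 13530 on total arrays 1 and 2, a replicate 2 minus 1 difference of -1 in bulge and 0.06 in total, where the medians of the 87 genes were 1.01 and 0.49.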

How the results depend on the processing

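The count of genes called between bulge and total stayed at 0 under all alternatives run: array centring, quantile normalization, log2 of signal plus 32, values raised to background, dim genes left out, other probe set rules, robust or trended variance, a replicate block and each array left out. A fit without 1 array assumes that the lone sample varies like the others. The median bulge minus total difference ranged from -0.449 to 0.557 with 1 array left out and lay within 0.02 of 0 under the others, taking either sign. The replicate 2 minus 1 median was 0.489 in total alone and 1.01 in bulge alone, and 0.616 to 0.781 under the other settings. Calls for replicate 2 against 1 were 0 under the other settings, 27 with dim genes left out and 5 with a variance trend. Leaving dim genes out fits fewer genes and also re-estimates the variance shared across genes, so unadjusted p-values change as well. With dim genes left out, 45 of the 82 genes had an unadjusted limma p under 0.05 for replicate 2 against 1. In the main fit 25 of the 87 had. Of 804 comparisons of a named gene with an alternative, 85 changed sign without any call. The replicate differences of bulge and total correlated at r = 0.625 over 5914 genes, as a description. With 2 pairs the numbers are not shown to pair samples, and the replicate block called 0 of 87 and changed no call. Depth is not defined for arrays; genes under the background level have only a bound.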
